A study of Mus musculus with 3 samples.

Results

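Neural stem cells (NSCs) from mouse fetal forebrain were set against mouse embryonic fibroblasts (MEFs) in a qRT-PCR screen of microRNAs. These are 2 of the 3 samples of the series, the other being embryonic stem cells (ESCs), and they were chosen by their labels. All 709 mouse microRNA assays on 2 plates were taken, 380 on plate 1 and 329 on plate 2. The NSCs were a line kept on Matrigel in medium with N2 and B27 supplements, basic fibroblast growth factor and platelet-derived growth factor-AA, and the MEFs carry no treatment in the labels. Strain, age and passage are not given in the sources used here, and no treatment or editing is given for either. According to the series' design text, RNA was pooled in equal amounts before the measurement, so each cell type stands as 1 sample. The 2 PCR runs of a sample are technical repeats. They carry PCR error only, no p-value across samples can be had, and a difference between these samples cannot be told apart from a difference between the cell types.

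A microRNA is cut from a hairpin RNA, whose strands give a 5p and a 3p arm, and the arm that is less often kept was marked with a star in older names. The kept arm guides a silencing complex to messenger RNAs, mainly through the seed, bases 2 to 8 from its 5′ end. Neural progenitors are known for miR-9 and its star arm, maturing oligodendrocytes for miR-219 and miR-338, and neurons for miR-124. Fibroblasts and other mesenchymal cells are known for the miR-199, miR-143 and miR-145 families, for miR-21, and for microRNAs encoded between the Hox genes, which record position along the body axis.

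The value measured was the Ct, the PCR cycle at which product is detected, so that 1 cycle less stands for about 2 times as much RNA. From the mean Ct of a microRNA the mean Ct of the reference RNAs U6, RNU43 and U1 on the same plate was subtracted, which gives the delta Ct. The log2 fold is the MEF delta Ct minus the NSC delta Ct and is positive where the level was higher in NSCs. Its error combines the spread of the runs of both samples, or of 1 sample where the other had a single measured well. Calls were made at a fold of 4 or more, provided that the reference-subtracted runs of the cell types were apart and that the cell type with the higher level had a mean Ct no later than 32.

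Of the 709 assays, 685 were measured in both cell types. The 12 called higher in NSCs were 1.75% of the 685, and the 95 called lower were 13.9%, which are the background shares for the lists below. The median log2 fold over all 685 was -0.48, and the middle part of the distribution, from the 25th to the 75th percentile, ran from -1.42 to 0.21. Fewer than 2-fold differences were found for 399 microRNAs, or 58.2%. Mean Ct values of at most 32 were found for 451 assays in NSCs and 515 in MEFs, and the median gap between runs was 0.17 cycles in NSCs and 0.15 cycles in MEFs at such levels, against 0.55 and 0.52 cycles at later Ct. The balance of the calls moved with the reference RNA. On plate 1, U6 averaged a Ct of 23.8 in NSCs and 24.7 in MEFs and U1 averaged 21.4 in NSCs and 22.5 in MEFs, whereas RNU43 averaged 26.6 in NSCs and 25.8 in MEFs. With U6 alone as the reference 9 microRNAs were called higher and 131 lower, with U1 alone 8 and 153, and with RNU43 alone 50 and 60. The median over all microRNAs lay between -1.32 and 0.67 under the references tried, so each list below is read against that median. A supplementary table of the study holds another set of MEF Ct values than the deposited one. The authors' deposited table of folds follows that other set. The deposited Ct values were used throughout, and the other set was not analysed here.

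**Figure D1:**
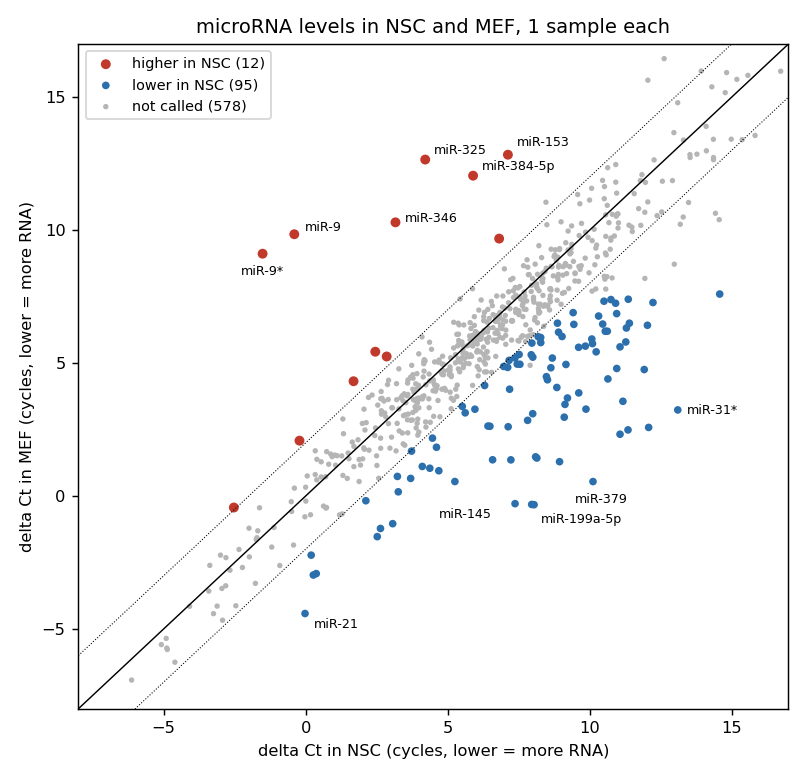
Delta Ct of 685 microRNAs in NSCs (horizontal axis, cycles) and MEFs (vertical axis, cycles), 1 point per microRNA, with a low value standing for a high level. The solid line marks equal delta Ct and the dotted lines a 4-fold difference. The 12 microRNAs called higher in NSCs lie above the lines and the 95 called lower below them.

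The labels were set beside markers of each cell type. These short panels, like the lists, were chosen with earlier results of these data known, so they are no independent check. Of 7 neural markers, 4 were called higher in NSCs (both miR-9 arms, miR-338-3p and miR-219) and none lower, while in the wider neural list described below 4 of 33 were called lower. Of the 7 markers, miR-124, miR-128 and miR-137 had log2 folds of 1.13 ± 0.22, 0.46 ± 0.27 and 1.34 ± 0.84 and were not called. Of 10 fibroblast and mesenchymal markers, 9 were called lower in NSCs and the tenth, miR-214, had a log2 fold of -1.58 ± 0.07. Added up as levels relative to the reference RNAs, the neural markers came to 4.44 and 4.60 in the NSC runs, against 0.0824 and 0.0582 in the MEF runs. The fibroblast markers came to 1.14 and 1.06 in the NSC runs, against 25.4 and 24.7 in the MEF runs. Assays differ in efficiency, so these sums follow their strongest members.

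Markers of other cells that a culture could hold were also read. Of the 4 blood markers, miR-142-3p and miR-223 were called lower in NSCs and miR-142-5p and miR-150 were not called. Their summed level was 0.00399 and 0.00302 in the NSC runs, against 0.106 and 0.110 in the MEF runs. Of the endothelial pair, miR-126-5p was called lower at -2.51 ± 0.07 and miR-126-3p stood at -1.93 ± 0.29, with sums of 0.00690 and 0.00906 in NSCs and 0.0369 and 0.0353 in MEFs. Of the 3 muscle markers, miR-206 was called lower at -2.70 ± 0.24, miR-133a stood at -1.15 ± 0.26, miR-1 was measured in neither cell type, and the sums were 0.0165 and 0.0230 in NSCs, against 0.110 and 0.113 in MEFs. The part of these cells in the lower calls was not tested. None of the 21 compared members of the miR-290 and miR-302 lists of pluripotent cells was called in either direction. Nor was any of the 9 members of the epithelial miR-200 list. The pluripotent sums were 0.152 and 0.151 in NSCs, against 0.347 and 0.341 in MEFs. The miR-200 sums were 0.047 and 0.051 in NSCs, against 0.061 and 0.068 in MEFs. miR-291b-5p of the miR-290 list had no NSC value and was not compared.

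The sequences of the microRNAs that carry the contrast are given here so that shared seeds can be seen. They are mature mouse sequences from RefSeq (build GRCm38.p6), written 5′ to 3′ with the seed in capitals. Names in the deposited tables matched 248 mature RefSeq entries, including 62 of the 107 called microRNAs. Of those called higher in NSCs, 7 brain-enriched ones are shown, with miR-30c added because miR-384-5p carries the same seed.
miR-9: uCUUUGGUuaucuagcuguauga
miR-9*: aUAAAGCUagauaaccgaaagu
miR-346: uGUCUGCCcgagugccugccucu
miR-384-5p: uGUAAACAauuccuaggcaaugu
miR-30c: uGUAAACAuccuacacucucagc
miR-153: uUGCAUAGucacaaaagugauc
miR-338-3p: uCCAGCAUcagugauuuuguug
miR-219: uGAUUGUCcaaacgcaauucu
Those shown for the microRNAs called lower in NSCs are the leading members of the mesenchymal, Hox-linked and Dlk1-Dio3 groups and some families that share a seed.
miR-199a-3p: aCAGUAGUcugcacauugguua
miR-199b: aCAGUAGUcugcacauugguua
miR-199a-5p: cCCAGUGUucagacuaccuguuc
miR-10a: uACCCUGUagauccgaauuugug
miR-10b: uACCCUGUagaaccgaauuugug
miR-196a: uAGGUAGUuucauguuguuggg
miR-196b: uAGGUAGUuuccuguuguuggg
miR-31*: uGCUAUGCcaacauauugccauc
miR-21: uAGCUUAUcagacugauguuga
miR-27a: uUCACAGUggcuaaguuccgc
miR-27b: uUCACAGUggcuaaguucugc
miR-29a: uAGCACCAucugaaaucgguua
miR-29b: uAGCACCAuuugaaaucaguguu
miR-29c: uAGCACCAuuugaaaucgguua
miR-221: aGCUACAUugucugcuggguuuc
miR-222: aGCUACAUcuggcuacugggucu
miR-379: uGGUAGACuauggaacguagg
miR-382: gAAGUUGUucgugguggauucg

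Both arms of miR-9 had the highest folds. miR-9, which is known to act on progenitor genes such as Nr2e1 and on the neuronal repressor Rest, had Ct values of 23.6 and 23.5 in the NSC runs, against 34.8 and 33.6 in the MEF runs. Its star arm, known to act on the Rest partner Rcor1, had 22.6 and 22.5 in the NSC runs, against 33.0 and 34.0 in the MEF runs. No run of one cell type came near a run of the other for either arm. The log2 folds were 10.24 ± 0.64 for miR-9 and 10.63 ± 0.48 for miR-9*, and both arms differed from each other by less than their errors. By delta Ct, miR-9* was the 29th and miR-9 the 36th most abundant assay in NSCs, against ranks of 595 and 618 in MEFs, although ranks across assays take no account of PCR efficiency. Because the MEF wells were late, these folds depend on how late wells are taken: with every Ct above 32 set to 32, miR-9* was still 559-fold and miR-9 265-fold higher in NSCs.

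The next group, with log2 folds from 5.71 to 8.44, were brain-enriched microRNAs in the middle of the Ct range in NSCs and very late in MEFs. miR-325 had Ct values of 28.1 and 28.2 in the NSC runs, against 35.2 and 38.8 in the MEF runs. The MEF runs lay 3.6 cycles apart, so its log2 fold of 8.44 had an error of 1.82, the largest of the 12. miR-346, whose hairpin lies within Grid1, a gene for a glutamate receptor family protein (chr14:34894609-34894706, GRCm38.p6), had 27.1 and 27.1 in the NSC runs, against a single measured MEF well at 34.6, and a log2 fold of 7.13. miR-384-5p had 29.98 and 29.68 in the NSC runs, against 36.6 and 36.2 in the MEF runs, with a log2 fold of 6.15 ± 0.22. In these microRNAs every NSC run was at least 6 cycles earlier than every MEF run. miR-153, a brain-enriched microRNA with a hairpin inside Ptprn2 (chr12:117250817-117250885), had 31.2 and 30.9 in the NSC runs, against 37.7 and 36.7 in the MEF runs, and a log2 fold of 5.71 ± 0.53. With late wells set to a Ct of 32 the log2 folds became 4.49 for miR-346, 3.44 for miR-325, 1.76 for miR-384-5p and 0.53 for miR-153, so the last pair lost the call. The hairpins of miR-325 and miR-384 lie 34.7 kb apart on the X chromosome, and the miR-325 hairpin (chrX:105379082-105379179) lies within the RNA gene 5330434G04Rik. Their other arms did not move with them, since miR-325* stood at -0.55 ± 0.15 and miR-384-3p, past a Ct of 36 in every measured well, at 0.70 ± 0.34.

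The rest of the higher calls had log2 folds below 3. miR-219 and miR-338-3p are known to promote the maturing of oligodendrocytes. miR-219 had Ct values of 25.7 and 25.5 in the NSC runs, against 28.4 and 29.0 in the MEF runs, a log2 fold of 2.63 ± 0.31. miR-338-3p, from a hairpin within Aatk (chr11:120014765-120014862), had 30.6 and 30.9 in the NSC runs, against 33.8 and 34.3 in the MEF runs, a log2 fold of 2.87 ± 0.28. The runs of both were apart, but miR-338-3p fell to 0.84 with late wells set to 32 and miR-219 lost its call with U1 or miR-16 as the reference. Both arms of miR-335, whose hairpin lies in an intron of the paternally expressed imprinted gene Mest (chr6:30741299-30741396), were called. miR-335-3p had 26.5 and 26.3 in the NSC runs, against 29.7 and 29.9 in the MEF runs, and a log2 fold of 2.97 ± 0.13. miR-335-5p had 26.7 and 26.9 in the NSC runs, against 29.4 and 29.8 in the MEF runs, and a log2 fold of 2.39 ± 0.25. All these wells were within range, and the miR-335-3p call held under every reference tried. miR-30c had 23.8 and 23.7 in the NSC runs, against 26.6 and 26.3 in the MEF runs, and a log2 fold of 2.30 ± 0.15. miR-805 had 21.5 and 21.6 in the NSC runs, against 23.9 and 24.0 in the MEF runs, and at 2.09 ± 0.06 was the call nearest the threshold. miR-30c, miR-335-5p and miR-805 lost their calls with U6, U1 or miR-16 alone as the reference. Just outside the threshold were miR-344 at 1.97 ± 0.13, miR-130b* at 1.92 ± 0.13 and miR-340-3p at 1.89 ± 0.20.

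**Figure D2:**
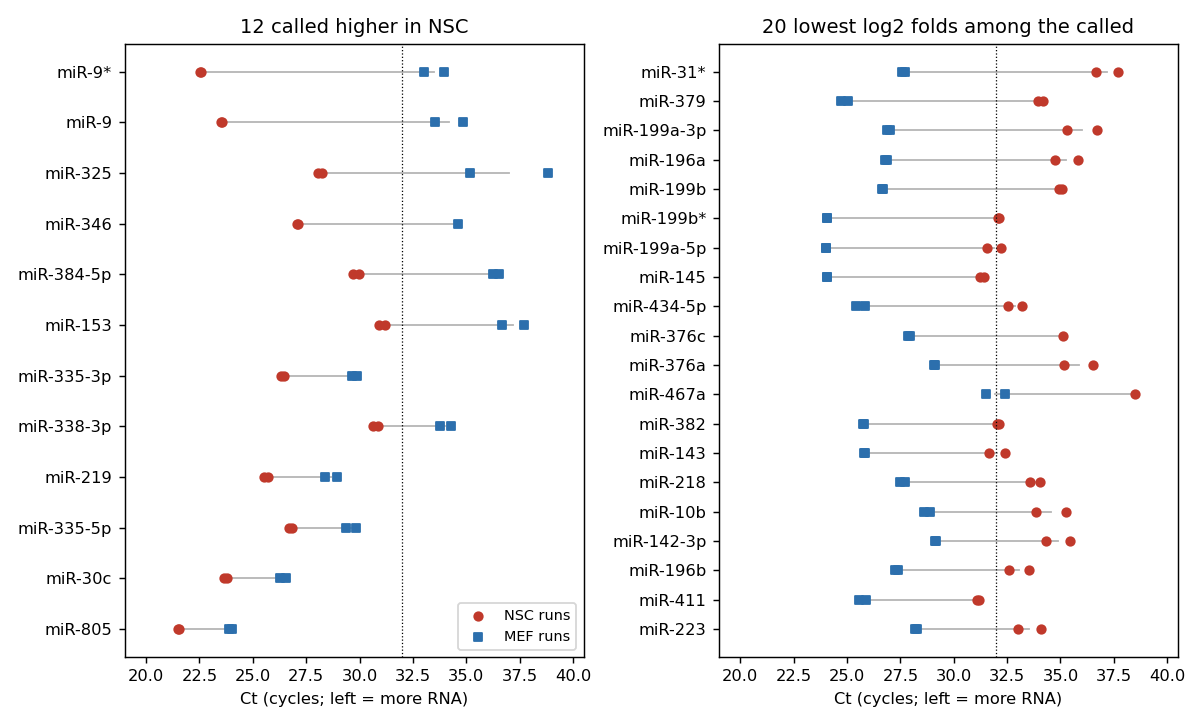
Ct of each PCR run (horizontal axis, cycles) for the 12 microRNAs called higher in NSCs (left) and the 20 with the lowest log2 folds among those called lower (right), with circles for NSC runs, squares for MEF runs, grey lines between the means and a dotted line at the Ct limit of 32. For miR-9* the circles lie at 22.6 and 22.5 and the squares at 33.0 and 34.0, while for miR-379 the circles lie at 33.9 and 34.2 and the squares at 24.73 and 25.05.

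As a list, the 33 neural and brain-enriched microRNAs were mixed. Higher calls were made for 8 (24.2% of the list, beside 1.75% of all microRNAs). Lower calls were made for 4 (12.1%, beside 13.9% of all), so they were no more frequent than in the background. The list had a median log2 fold of 0.12, beside -0.48 over all microRNAs. The sign of the list median turned negative with U6, U1 or miR-16 as the reference. miR-218, a microRNA of motor neurons with copies in introns of Slit2 and Slit3, had Ct values of 33.6 and 34.0 in the NSC runs, against 27.5 and 27.7 in the MEF runs, and a log2 fold of -6.60 ± 0.26. miR-134, which is known to act on Limk1 in dendrites and lies in the Dlk1-Dio3 region, had 28.4 and 28.2 in the NSC runs, against 25.3 and 25.5 in the MEF runs, and a log2 fold of -3.33 ± 0.17. Thus these brain-linked microRNAs were at a higher level in the fibroblast sample. miR-7a and miR-7b, which share the seed GGAAGAC, stood at -2.20 ± 0.35 and -2.37 ± 0.66, and both lost the call with RNU43 or the mean of all microRNAs no later than 32 cycles as the reference and, at -1.97 and -1.57, with late wells set to 32. The neuronal miR-124 had 29.2 and 29.4 in the NSC runs, against 30.7 and 31.1 in the MEF runs, and miR-132 and miR-212, an activity-responsive pair in neurons, stood at -1.66 ± 0.12 and -1.49 ± 0.11.

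Among the microRNAs called lower in NSCs, 47 of 95 were lower by at least 16-fold and 18 by at least 64-fold. In 54 of them the NSC mean Ct was past 32, and in 41 both cell types were within range. With late wells set to a Ct of 32, 73 of the 95 calls held, so both the size of the folds and some of the calls depend on late wells. Across 7 lists, 27 of 38 compared members were called lower, beside 13.9% of all microRNAs, and none higher, beside 1.75% of all. They are mesenchymal, Hox-linked and related families (miR-199 and miR-214, miR-143 and miR-145, Hox-linked, miR-21 and miR-31, miR-23 to miR-27, miR-221 and miR-222, and miR-29). These lists were written with earlier results of these data known, so the pooled count describes them and tests nothing. Their medians stayed below 0 under every reference tried.

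The miR-199 and miR-214 microRNAs come from antisense transcripts in dynamin genes, among them Dnm3os, which is needed for skeletal growth in mice. Of 6 compared, 5 were called lower, and the median log2 fold was -8.32. miR-199a-5p had Ct values of 32.2 and 31.6 in the NSC runs, against 24.0 and 24.0 in the MEF runs, and a log2 fold of -8.28 ± 0.32. miR-199a-3p had 36.7 and 35.3 in the NSC runs, against 27.0 and 26.9 in the MEF runs, and stood at -9.50 ± 0.69. miR-199b had 34.9 and 35.1 in the NSC runs, against 26.7 and 26.7 in the MEF runs, and stood at -8.75 ± 0.09. As printed above, miR-199a-3p and miR-199b have the same 22 bases, so these assays measured 1 RNA sequence 2 times, and their folds lay 0.75 apart on the log2 scale. miR-199b* stood at -8.37 ± 0.04. miR-214 was the exception: it had 27.86 and 27.98 in the NSC runs, against 26.7 and 26.8 in the MEF runs, while its star arm had 30.4 and 30.9 in the NSC runs, against 25.8 and 25.7 in the MEF runs, and stood at -5.22 ± 0.27.

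miR-145 and miR-143 are transcribed together and are known from smooth muscle and fibroblasts. miR-145 had Ct values of 31.2 and 31.4 in the NSC runs, against 24.1 and 24.1 in the MEF runs, and a log2 fold of -7.66 ± 0.09. miR-143 had 32.4 and 31.7 in the NSC runs, against 25.8 and 25.8 in the MEF runs, and a log2 fold of -6.62 ± 0.37. Both were far apart between the cell types in every run, and both were called under each reference tried. miR-145* was late in both cell types and stood at -1.44 ± 1.42.

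Of 8 compared Hox-linked microRNAs, the 4 main arms of miR-10 and miR-196 were called lower. miR-10a lies in Hoxb3 (chr11:96317165-96317274) and miR-10b within the spans of Hoxd3 and Hoxd4 (chr2:74726070-74726137). miR-196a had Ct values of 34.7 and 35.8 in the NSC runs, against 26.8 and 26.9 in the MEF runs, a log2 fold of -8.86 ± 0.56. miR-196b had 33.5 and 32.6 in the NSC runs, against 27.3 and 27.4 in the MEF runs, a log2 fold of -6.14 ± 0.47. miR-10b had 35.3 and 33.9 in the NSC runs, against 28.6 and 28.9 in the MEF runs, a log2 fold of -6.24 ± 0.72. All NSC wells of these microRNAs were past the Ct limit of 32, while the MEF wells lay at 28.9 or earlier. miR-10a stood at -5.53 ± 0.19. The pair miR-10a and miR-10b shares a seed, as does the pair miR-196a and miR-196b. With late NSC wells set to 32, miR-196a still stood at -5.58 and miR-10b at -3.66. The star arms were past a Ct of 32 in both cell types and so could not be called, with miR-10a* at -2.45 ± 1.37, miR-196a* at 0.29 ± 0.25 and miR-10b* at 0.88 ± 0.27. miR-615-3p, from the Hoxc cluster, stood at -0.30 ± 0.25.

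miR-21, a microRNA raised in growing and fibrotic tissue whose hairpin lies in Vmp1, was the 9th most abundant assay in MEFs and the 40th in NSCs. It had Ct values of 23.8 and 24.0 in the NSC runs, against 19.90 and 19.95 in the MEF runs, and a log2 fold of -4.40 ± 0.06. miR-31 had 31.1 and 31.1 in the NSC runs, against 26.9 and 27.0 in the MEF runs, and stood at -4.53 ± 0.08. Its star arm had 36.6 and 37.7 in the NSC runs, against 27.6 and 27.7 in the MEF runs, and at -9.87 ± 0.53 had the lowest log2 fold of all. With late wells set to 35 or 32 the log2 fold of miR-31* was -7.69 or -4.69, values that those limits set.

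The clusters miR-23a, miR-27a and miR-24 on chromosome 8 and miR-23b, miR-27b and miR-24 on chromosome 13 moved alike. Of 9 assays 7 were called lower, with a median of -3.24, and 4 were with RNU43 as the reference, where miR-24, miR-27a* and miR-27b* lost the call. miR-23a had Ct values of 24.2 and 24.2 in the NSC runs, against 21.3 and 21.4 in the MEF runs, and miR-23b had 24.3 and 24.3 in the NSC runs, against 21.4 and 21.5 in the MEF runs. Their log2 folds were -3.24 ± 0.03 and -3.29 ± 0.04. miR-27a stood at -3.86 ± 0.29 and miR-27b at -4.11 ± 0.03, and miR-24, which both clusters encode, at -2.77 ± 0.10. As these pairs differ by few bases, each assay of a pair may also read the other member. miR-221 and miR-222, which share a seed and are known to act on the cell cycle inhibitor Cdkn1b, stood at -2.995 ± 0.12 and -3.04 ± 0.02 and lost their calls with RNU43 as the reference.

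miR-29a, miR-29b and miR-29c share a seed and are known to act on collagen genes. miR-29a had Ct values of 32.2 and 32.7 in the NSC runs, against 28.5 and 28.9 in the MEF runs, a log2 fold of -4.14 ± 0.33. miR-29b stood at -4.21 ± 0.46 and miR-29c at -3.81 ± 0.03. All 3 were called lower, whereas miR-29c* had 31.2 and 31.5 in the NSC runs, against 33.0 and 32.1 in the MEF runs, and stood at 0.89 ± 0.48.

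**Figure D3:**
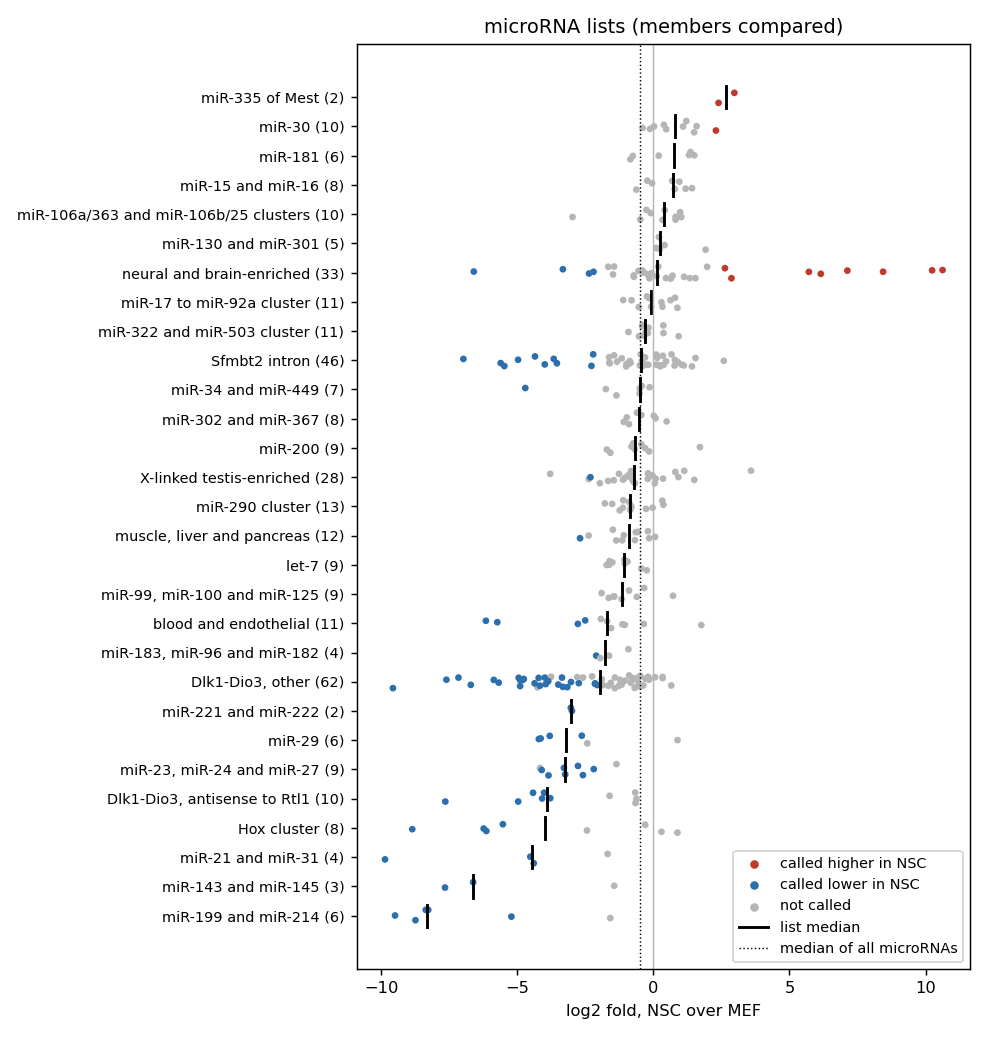
Log2 fold, NSC over MEF (horizontal axis), of the members of 29 lists, ordered by list median, with the number of compared members in brackets and colour for the call. The miR-199 and miR-214 list has the lowest median, -8.32, and miR-335 the highest, 2.68, beside a dotted line at -0.48 for all microRNAs.

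The Dlk1-Dio3 region on chromosome 12 is imprinted, and its microRNAs are read from the maternal allele. It was the largest source of lower calls, with 32 of 72 compared assays called lower (44.4%, beside 13.9% of all), none higher, and a median log2 fold of -2.10. Of the members listed as antisense to Rtl1, a retrotransposon-derived gene that they silence, 6 of 10 were called and the median was -3.90. Among the others 26 of 62 were called and the median was -1.98. RefSeq placed Rtl1 over further hairpins, among them those of miR-337 and miR-540, which were counted with the others. The split is therefore that of the lists and not of overlap with Rtl1. Under the references tried the other members had between 19 and 31 lower calls. With late wells set to a Ct of 32, 4 of the 6 calls of the Rtl1 group and 20 of the 26 others held. The medians then were -1.73 and -0.70 over 11 and 65 assays, since this setting also gave empty wells a Ct of 32. Over all microRNAs the median was -0.41, which is the value given to a plate 1 assay late in both cell types. That median is set by the limit, so it is no measured background. With late microRNAs left out, 2 of 6 and 8 of 28 compared assays were called lower. Their medians were -1.14 and -0.69, beside -0.35 over all, so the size of the group medians depends on late wells. miR-379, the start of the large microRNA group of the region (chr12:109709060-109709125), had Ct values of 33.9 and 34.2 in the NSC runs, against 24.73 and 25.05 in the MEF runs, and a log2 fold of -9.57 ± 0.19. miR-434-5p had 33.2 and 32.6 in the NSC runs, against 25.9 and 25.4 in the MEF runs, and stood at -7.65 ± 0.38. miR-382 had 32.05 and 32.10 in the NSC runs, against 25.8 and 25.8 in the MEF runs, and stood at -6.71 ± 0.03. The runs of the cell types lay 6 or more cycles apart in these microRNAs. miR-376c stood at -7.61 with 1 NSC well measured, miR-376a at -7.17 ± 0.69, miR-411 at -5.87 ± 0.17 and miR-154 at -5.69 ± 0.25.

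The lower calls were spread along the region and stood beside assays that were not called. RefSeq placed 67 compared assays from 47 hairpins over 180.0 kb, and 25 hairpins had an arm called lower. Within the Rtl1 group, miR-431 at -4.97 ± 0.10 and miR-433* at -4.42 ± 0.37 stood next to miR-433 at -0.67 ± 0.05 and miR-432 at -0.66 ± 0.07. In the large group, miR-494 was among the most abundant assays of both cell types, with 19.07 and 19.02 in the NSC runs, against 18.6 and 18.6 in the MEF runs, and stood at -0.83 ± 0.02. miR-323-3p, miR-667 and miR-485* likewise stood at -0.48 ± 0.21, -0.19 ± 0.19 and -0.29 ± 0.07. Thus assays of one region ranged from less than a 2-fold difference to the -9.57 of miR-379 on the log2 scale. miR-770-5p was called at -3.99 with an error of 3.26, since its NSC runs were at 29.3 and 35.8, and its other arm stood at -0.51 ± 0.03.

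**Figure D4:**
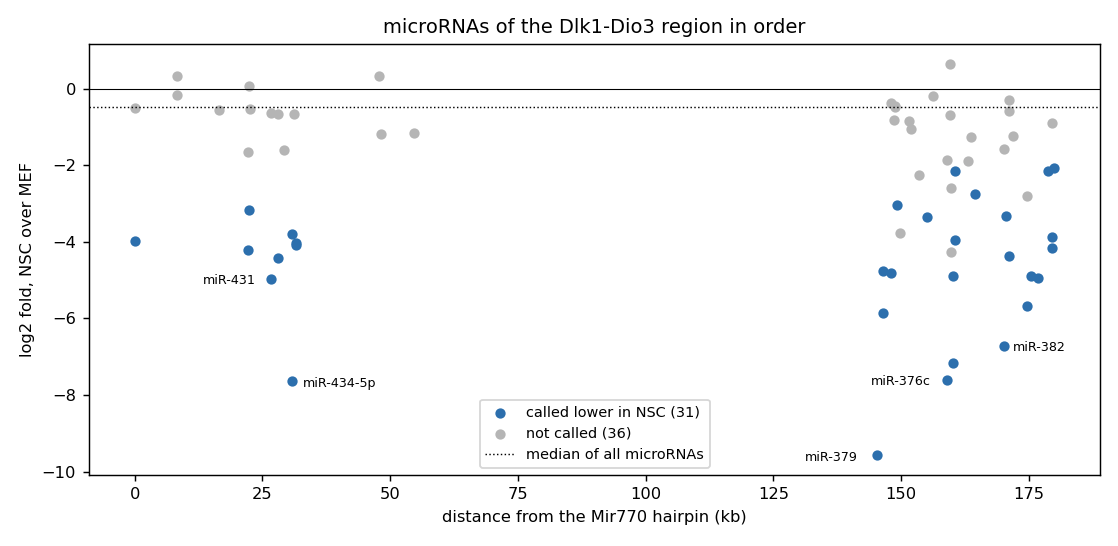
Log2 fold, NSC over MEF (vertical axis), of 67 assays from the Dlk1-Dio3 region by distance of the hairpin from Mir770 (horizontal axis, kb), with colour for the call. miR-379 has the lowest value, -9.57, and called and uncalled assays lie side by side over the 180.0 kb.

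The Sfmbt2 intron holds a large family of repeated hairpins, of which 10 of 46 compared assays were called lower (21.7%, beside 13.9% of all). The median was -0.44, near that of all microRNAs, and 0.70 with RNU43 as the reference. The calls came from few subfamilies, and with late wells set to a Ct of 32 only 3 of the 10 held, those of miR-466b-3-3p, miR-466d-3p and miR-669o. Of miR-466 the 3p assays a, b, b-3, c, d and e were called, from -5.61 ± 0.69 for miR-466a-3p to -2.21 ± 0.17 for miR-466d-3p. miR-466e-3p had Ct values of 34.4 and 34.5 in the NSC runs, against 30.6 and 30.5 in the MEF runs. The 5p assays of the same names were past a Ct of 32 in both cell types and stood between -0.94 and 2.59. miR-467a at -6.98 rests on 1 NSC well at 38.5, and its star arm stood at -1.61 ± 0.17. As the copies are near-identical, these assays may read each other and count as uncertain. Of 28 compared X-linked testis-enriched microRNAs, miR-470* alone was called, at -2.32 ± 0.53, and the median Ct of this list was 33.8 in NSCs and 33.6 in MEFs.

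Blood and endothelial microRNAs gave 4 lower calls among 11 compared (36.4%, beside 13.9% of all). Under the references tried there were between 2 and 6, and miR-155 and miR-126-5p lost the call with RNU43. miR-142-3p, a marker of blood cells, had Ct values of 34.3 and 35.4 in the NSC runs, against 29.2 and 29.1 in the MEF runs, and a log2 fold of -6.16 ± 0.57. miR-223, a marker of myeloid cells, had 33.0 and 34.1 in the NSC runs, against 28.3 and 28.2 in the MEF runs, and a log2 fold of -5.74 ± 0.56. Both were late in NSCs and within range in MEFs. miR-155 stood at -2.78 ± 0.26. miR-34b-5p, from a hairpin that p53 is known to activate, stood at -4.71 ± 0.19, with its 3p arm at -1.75 ± 0.21 and miR-34a at -0.43 ± 0.07. miR-182, known from sensory organs, stood at -2.10 ± 0.20, and its neighbour miR-183 was just outside the threshold at -1.95 ± 0.34.

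Families that most growing cells carry gave few calls. The let-7 microRNAs are known to increase as cells mature. All 9 let-7 assays lay between -1.72 and -0.24 with a median of -1.07, and none was called. Between references that median ran from -1.85, with 4 lower calls, to 0.13 with RNU43. The miR-99, miR-100 and miR-125 list had a median of -1.17 and no call among 9, and its median ran from -1.95, with 4 lower calls, to 0.03 with RNU43. The proliferation-linked miR-17 to miR-92a cluster had a median of -0.09 and its paralogous clusters one of 0.38, with 11 and 10 assays compared and no call, and both medians changed sign between references. miR-15 and miR-16 relatives had a median of 0.74, the miR-181 family one of 0.75 and the miR-30 family one of 0.78, each of which fell just below 0 with miR-16 as the reference, itself a member of the list named for it. With RNU43 the medians were 1.94, 1.95 and 1.94, with 3, 3 and 5 higher calls. Of miR-30, only miR-30c was called with the mean of the reference RNAs. miR-30b stood at 1.59 ± 0.03, and miR-30a, miR-30d and miR-30e at 0.47 ± 0.04, 0.38 ± 0.10 and 0.02 ± 0.39. The star arms ran from -0.40 ± 0.57 for miR-30c-2* to 1.49 ± 0.21 for miR-30e*. miR-30a, miR-30c, miR-30e and miR-384-5p carry the seed GUAAACA, and their log2 folds ran from 0.02 to 6.15. The upper end, miR-384-5p, rests on late MEF wells. With late wells set to a Ct of 32 it stood at 1.76, below miR-30c at 2.30.

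Both arms were compared for 181 pairs matched by name, some of which, such as miR-218 and its star arms, come from more than 1 hairpin. In 15 pairs both arms were called, in the same direction each time, 2 of them higher (miR-9 and miR-335) and 13 lower. In 46 pairs 1 arm was called. In 18 of these both arms were within the Ct limit in the cell type with the higher level and lay at least 4-fold apart. The 18 pairs hold miR-218 with each of its star arms. Examples are miR-540-3p at -3.17 ± 0.14 beside miR-540-5p at 0.06 ± 0.30, and miR-431 at -4.97 ± 0.10 beside miR-431* at -0.62 ± 0.04. In the same way miR-21 at -4.40 ± 0.06 stood beside miR-21* at -1.68 ± 0.14, and miR-338-3p at 2.87 ± 0.28 beside miR-338-5p at -0.23 ± 0.21. Starred arms were run on plate 2 and many of their partners on plate 1, so such pairs also compare plates. The median log2 fold of all microRNAs was -0.64 on plate 1 and -0.38 on plate 2. What set the arms apart, the plate included, was not tested.

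**Figure D5:**
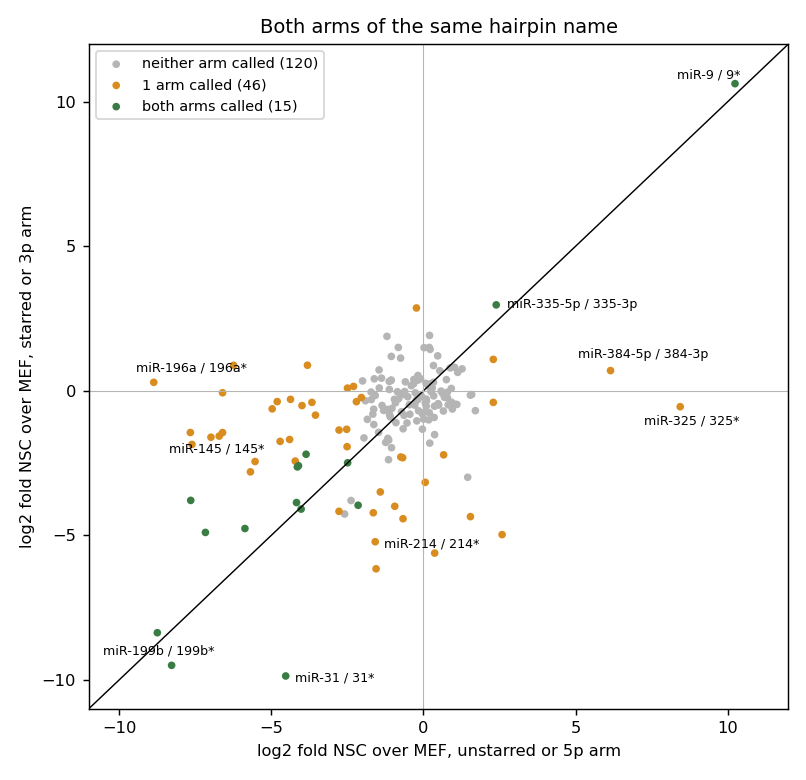
Log2 fold, NSC over MEF, of the unstarred or 5p arm (horizontal axis) and of the starred or 3p arm (vertical axis) of 181 pairs, with the line of equal folds. The arms of miR-9 lie together at 10.24 and 10.63, whereas miR-196a lies at -8.86 with its star arm at 0.29.

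Of the lower calls, 15 belonged to no list. Among them both arms of miR-455, a cartilage-linked microRNA, stood at -2.49, with errors of 0.08 and 0.27, and miR-140*, from another cartilage-linked hairpin, at -2.29 ± 0.08. miR-152, named after its value was seen, had Ct values of 28.5 and 28.7 in the NSC runs, against 25.3 and 25.3 in the MEF runs, and stood at -3.74 ± 0.10. miR-378 at -2.04 ± 0.03 and miR-410 at -2.06 ± 0.15 were just inside the threshold, and miR-669h-5p at -1.9998 ± 1.21 and miR-421 at -1.96 ± 0.08 just outside. Runs disagreed in 3 lower calls with errors above 1.5. Beside miR-770-5p these were miR-1930, with NSC runs at 29.9 and 40.4, against 29.9 and 30.1 in the MEF runs, and miR-692, also named after its value was seen, with 25.1 and 28.1 in the NSC runs, against 22.8 and 22.9 in the MEF runs.

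A value in MEFs and none in NSCs was found for 15 assays, and miR-741 alone had the reverse, at 38.4 and 36.8 in the NSC runs. In 9 of the 15 both MEF runs were measured at a mean Ct between 26.3 and 31.6. They include miR-127 of the Rtl1 group, at 26.2 and 26.4 in the MEF runs. Also among the 9 are miR-369-5p and miR-1193 of the Dlk1-Dio3 region and miR-615-5p of the Hoxc cluster. miR-291b-5p of the miR-290 list, at 27.96 and 28.13 in the MEF runs, belongs to them too. The 9 also include miR-22, miR-188-5p and miR-343, which were chosen after their values were seen. In 7 of the 9, but not in miR-369-5p and miR-1193, both ESC wells were empty too. An empty well may be a failed reaction as well as a low level, so no fold is given.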

How the data were processed

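Small RNA of each cell type was tailed, reverse transcribed and amplified with SYBR Green by the authors, who deposited the Ct of each well. This value is a cycle number of no other unit, so it has no count depth. The log2 values here were computed from the deposited Ct. The authors also deposited delta Ct, which equals the mean Ct minus the mean of U6, RNU43 and U1 in all wells of NSCs and MEFs compared (within 0.001 cycles), and tables of their own folds and p-values, which were not used. The sources used here do not say how the threshold for a Ct was set. Wells without a value were left out, 5 NSC and 14 MEF wells above 40 cycles were kept, and amplification was taken as 2-fold per cycle. The computation was run on simulated Ct values with large planted folds, the same noise at every Ct and no empty wells. This checks the arithmetic only, not calls near the threshold or those that rest on late wells.

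The members, the 29 lists, the marker panels and the rules for calls were chosen with earlier results of these data known. Named microRNAs were drawn from those called higher, the 30 lowest of those called lower, list members and hairpins with a called arm. Further ones came from the most abundant 10 per cell type and the 3 on each side of a threshold. Not every member of these groups is named. Alternatives were other references, an amplification of 1.9-fold, single runs, only wells whose runs lay within 1 cycle, and late wells dropped or set to 32 or 35. Python 3.11.15, pandas 2.3.3 and numpy 2.4.6 were used.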

Additional observations from a re-analysis of the deposited data

How the results depend on the processing

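The direction of the 107 called microRNAs was the same under each alternative that gave a value, but the number of calls was not. With RNU43 alone as the reference, 50 were higher and 60 lower in NSCs, and the median log2 fold of all microRNAs was 0.67. Scaling to the average of all microRNAs no later than 32 cycles gave 19 higher and a median of 0.025. U1 alone gave 153 lower and a median of -1.16, miR-16 alone 167 lower and a median of -1.32, and U6 alone a median of -0.94. With late microRNAs left out, 5 were higher and 41 lower and the median was -0.35, since fewer microRNAs were compared. Of the 12 higher calls 8 held under all 5 references, and of the 95 lower calls 60 did. The higher calls of miR-9* and miR-335-3p and 35 of the lower calls held under all alternatives other than the one that leaves late microRNAs out. Run 1 alone gave no value for miR-346 in MEFs and run 2 alone kept all 12 higher calls. No paired analysis was possible because each cell type has 1 sample, and there was no sample to leave out. Late wells limit the calls as well as the largest folds, since with late wells set to a Ct of 32, 9 of the 12 higher and 73 of the 95 lower calls held.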
